A study of Mus musculus with 8 samples.

Results

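The genes described here are 9 genes of carbohydrate digestion, sugar transport and fructose use, taken from a table of 56941 genes by their symbols: the brush border disaccharidases Sis, Mgam, Lct and Treh, the sugar transporters Slc5a1, Slc2a2 and Slc2a5, and the fructose enzymes Khk and Tkfc. All 9 were found and all 9 passed the filter on low counts, as did 18025 genes in all. Messenger RNA of the jejunum, the middle stretch of the small intestine, was sequenced from C3H mice (C3H/HeJ, 4 libraries) and from B6 mice (C57BL/6, 4 libraries). Both are inbred strains, and all of the mice were naive. Per the labels the mice were 6 to 8 weeks old and both strains shared cages for 8 weeks or more ahead of tissue collection; at which of these points the age applies is not stated. The labels place every library in batch 1 and give no sex. They do not say that each library is a separate mouse, so p-values measure only the spread between these libraries.

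Starch and dietary sugars reach the jejunum as short chains and pairs of sugars, which enzymes anchored in the brush border of enterocytes split into glucose, galactose and fructose. Glucose and galactose enter with sodium through the apical carrier encoded by Slc5a1 (SGLT1). Fructose enters through the carrier encoded by Slc2a5 (GLUT5), and the carrier encoded by Slc2a2 (GLUT2) passes these sugars across the basolateral membrane to the blood. Part of the fructose is used inside the enterocyte, where ketohexokinase (Khk) phosphorylates it and, once the product is split, triokinase (Tkfc) phosphorylates the glyceraldehyde that results. In mice, amounts of these proteins respond to the sugar content of the diet and to age, as lactase does at weaning.

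None of the 9 genes passed the adjusted threshold between the strains. With edgeR's quasi-likelihood test and adjusted p-values (Benjamini-Hochberg, over all genes tested), 0 of 9 were higher and 0 were lower in C3H, where 21.4% of all tested genes passed at 0.05 (11.3% higher and 10.1% lower). At an unadjusted p under 0.05 the count was 1 of 9, Slc2a2, against 33.1% of all tested genes. By other tools at the same adjusted threshold, DESeq2 called 2 (Slc5a1 and Slc2a2, both lower in C3H) and limma-voom 0. The fold change of C3H over B6 was below 1 for 6 genes and above 1 for 3. The median log2 fold change of the 9 was -0.090, against 0.025 over all tested genes. In bulk tissue fewer cells of a type and less RNA per cell cannot be told apart, which holds for every level given here.

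**Figure D1:**
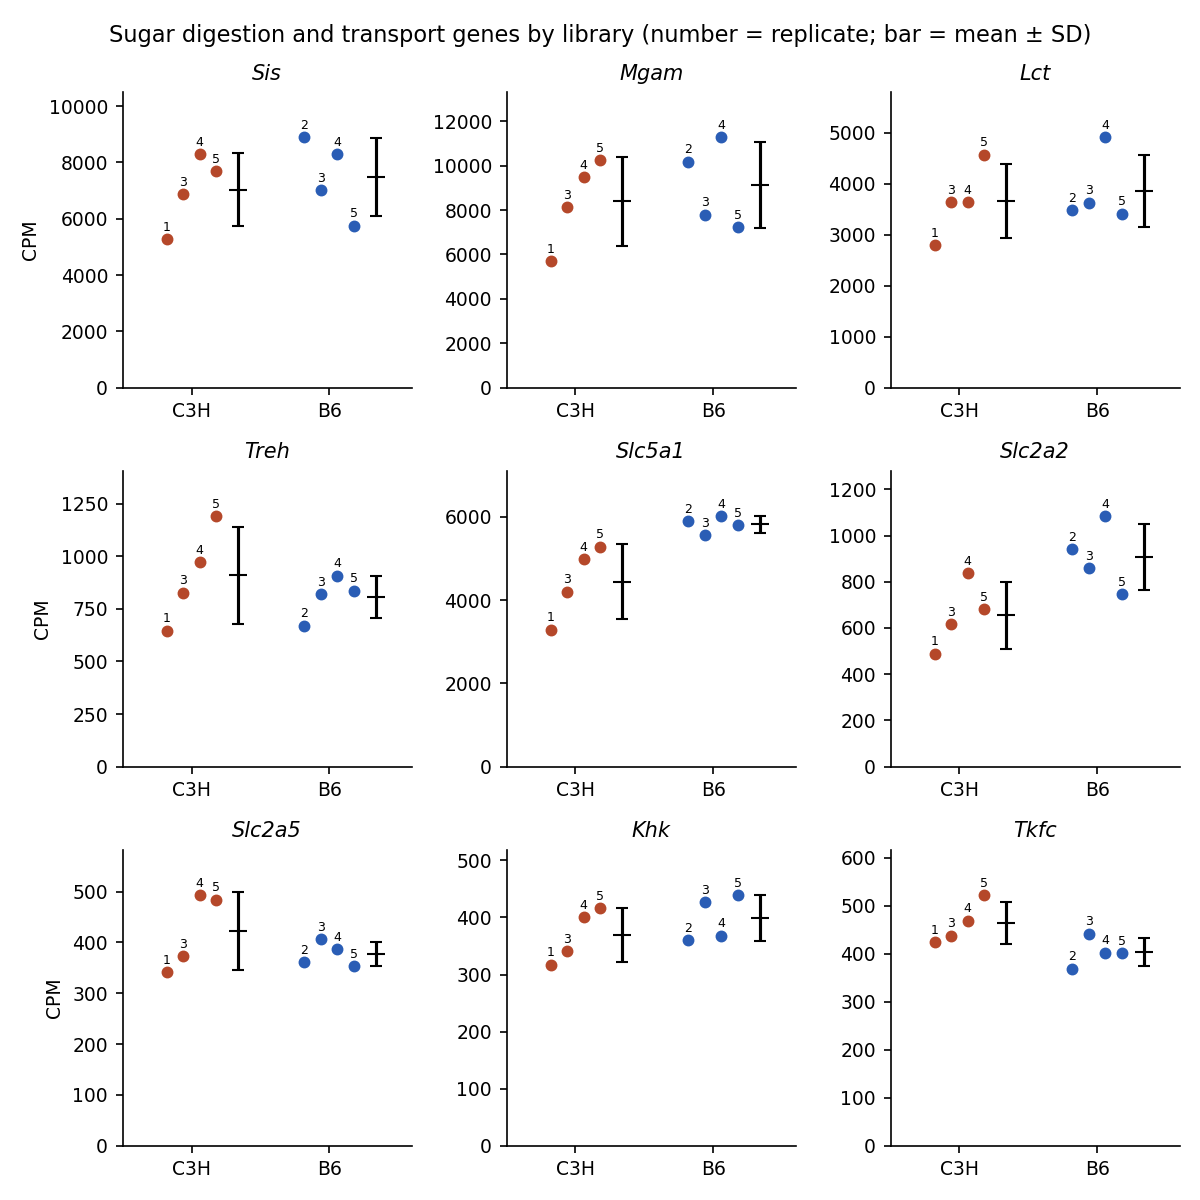
Each panel plots 1 gene, with CPM (the gene's counts relative to the TMM-scaled total of the library) on the vertical axis from 0 and 1 point per library, C3H on the left and B6 on the right; numbers are replicates and bars are the mean ± SD of 4 libraries. The 4 points of the strains overlap in every panel but that of Slc5a1, where C3H reaches 5287 CPM at most and B6 starts at 5558 CPM.

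Library totals were 37205896 to 58251332 counts, so each member rested on at least 65084 counts per strain and counting error was small beside the spread between libraries. The tissue label was checked against markers: the summed level of 12 enterocyte markers was 59813 to 94535 CPM in C3H and 66286 to 85591 CPM in B6, while the ileal genes Fabp6 (20 counts over C3H, 2 over B6) and Fgf15 (0 counts) and the colonic genes Car1 (1 and 0 counts) and Hoxd13 (0 counts) were at or near 0. Pancreatic markers summed to 49.8 to 3511 CPM in C3H libraries and 25.9 to 292 CPM in B6 libraries, the highest in C3H 3 and C3H 5. Without the 2 libraries of each strain richest in these transcripts, 0 of the 9 members passed in edgeR, with 2 libraries left per strain and 1675 genes called in all.

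The most abundant members were the 2 α-glucosidases and the sodium-glucose carrier. Levels between genes were compared per length, as CPM per kilobase (kb) of the principal annotated transcript. In C3H, Mgam had 1293 ± 308, Sis 1181 ± 219 and Slc5a1 1083 ± 218 CPM per kb (SD, n = 4), and in B6 Slc5a1 had 1418 ± 47.7, Mgam 1406 ± 297 and Sis 1258 ± 235 CPM per kb (SD, n = 4). Within each strain the ranges of these 3 genes overlapped. Compared library by library, Slc5a1 was the lowest of the 3 in every C3H library, and Mgam was above Sis in every B6 library. Their other orders differed between libraries and were not resolved. Lct followed with 594 ± 117 CPM per kb in C3H and 626 ± 115 in B6, then Treh with 444 ± 113 in C3H and 394 ± 48.6 in B6. The ranges of those 2 overlapped in C3H but not in B6, and Lct was above Treh in every library. Khk had 233 ± 29.8 CPM per kb in C3H and 252 ± 25.4 in B6. The lowest 3 levels were those of Tkfc (184 ± 17.4 in C3H, 160.4 ± 11.8 in B6), Slc2a5 (134 ± 24.4 in C3H, 119 ± 7.57 in B6) and Slc2a2 (118 ± 26.0 in C3H, 163 ± 25.4 in B6). By its mean Slc2a2 was thus the lowest of the 9 in C3H and the seventh in B6. Its range overlapped that of its neighbour in each order (Slc2a5 in C3H, Tkfc in B6). Slc2a2 was below Slc2a5 in every C3H library, whereas its order with Tkfc differed between B6 libraries. Together the 9 genes took 2.18% to 2.89% of all counts in C3H libraries and 2.48% to 3.15% in B6 libraries.

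**Figure D2:**
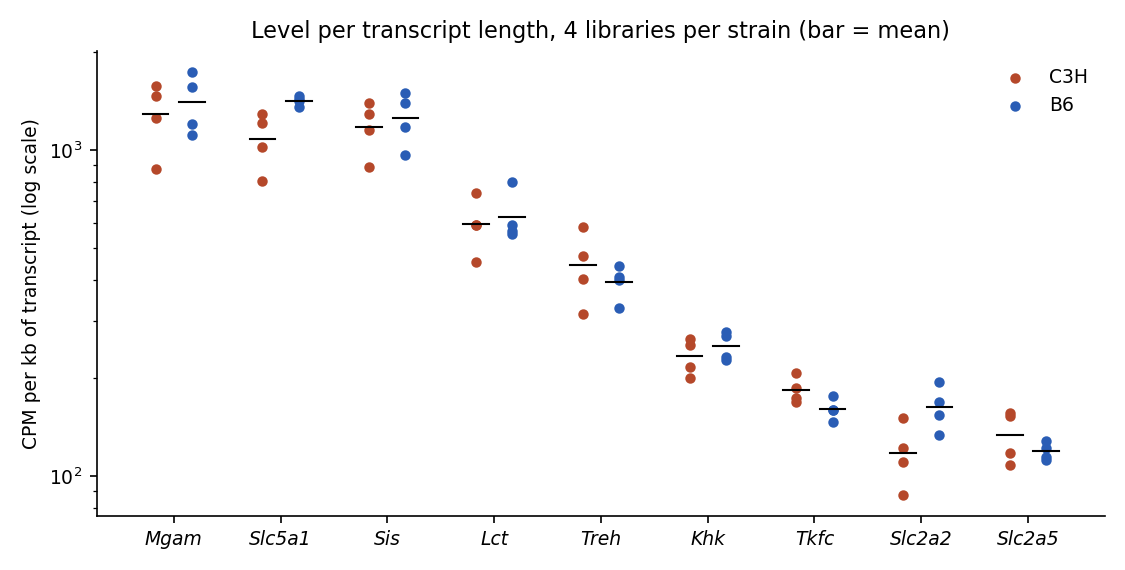
Levels of the 9 genes are plotted as CPM per kb of principal transcript on a log axis, with 1 point per library, C3H left of B6 for each gene, and a line at the mean of 4. Mgam, Slc5a1 and Sis form the top group at means of 1083 to 1418 CPM per kb, and the lowest means are 118 CPM per kb for Slc2a2 in C3H and 119 CPM per kb for Slc2a5 in B6.

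Sis (ENSMUSG00000027790) encodes sucrase-isomaltase, which splits sucrose and the branch points of starch fragments. It had 5280, 6873, 8290 and 7687 CPM in C3H replicates 1, 3, 4 and 5, and 8901, 7006, 8284 and 5756 CPM in B6 replicates 2, 3, 4 and 5. The strains overlapped almost fully, with the highest value in B6 2 and the lowest in C3H 1. The fold change of C3H over B6 was 0.939 (95% interval 0.682 to 1.29, edgeR adjusted p = 0.814).

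Mgam (ENSMUSG00000068587) encodes maltase-glucoamylase, which releases glucose from the ends of maltose and longer starch chains. In C3H it had 5691, 8132, 9492 and 10233 CPM, and in B6 10176, 7794, 11286 and 7221 CPM, in the same replicate order. The pattern over libraries resembled that of Sis, with B6 2 and B6 4 above B6 3 and B6 5, and C3H 1 lowest of all. Slc5a1 and Slc2a2 had this order too. The fold change was 0.920 (0.640 to 1.32, edgeR adjusted p = 0.778). The ratio of Sis to Mgam counts, which needs no scaling, was 0.849 ± 0.0739 in C3H and 0.826 ± 0.0752 in B6 (SD, n = 4 each), and the strains overlapped. A related pseudogene, Mgam2-ps, had 115 to 136 CPM in C3H and 103 to 197 CPM in B6, and how reads shared with it were counted is not given.

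Lct (ENSMUSG00000026354) encodes lactase, which splits milk sugar and falls after weaning in mice. It had 2799, 3645, 3644 and 4571 CPM in C3H and 3490, 3633, 4919 and 3416 CPM in B6. The highest value was B6 4 and the other B6 libraries lay within the range of C3H. The fold change was 0.948 (0.711 to 1.27, edgeR adjusted p = 0.826).

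Treh (ENSMUSG00000032098) encodes trehalase, which splits the fungal and insect sugar trehalose. It had 645, 826, 972 and 1190 CPM in C3H, a wider spread than the 670, 819, 907 and 836 CPM in B6. All B6 values lay inside the range of C3H. The fold change was 1.12 (0.860 to 1.47, edgeR adjusted p = 0.557). Treh overlaps Phldb1 on the opposite strand, which had 6366 counts over all libraries against 310938 for Treh.

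The promoters of Sis, Mgam and Lct are shown because these are the only members with the CDX core motif in the window searched. Khk is shown as a GC-rich member without it. The motif did not follow the profiles over libraries. Slc5a1 and Slc2a2, which shared the order of libraries of Sis and Mgam, lacked it, and Lct had it without that order. The 250 bases before the start of each gene were taken from RefSeq on GRCm38.p6, an earlier build than the one the counts were made on, and all 9 members had an entry. Capitals mark matches, on either strand, to TTTAT (the core bound by CDX factors), to the GATA factor motifs AGATAA and also TGATAA, and to CACGTG (the E box, from which ChREBP sites are built). Sequences are on the strand of the gene, and adjoining or overlapping matches run together: in Sis a pair of CDX matches, on opposite strands, adjoin without sharing a base, and in Lct a CDX match overlaps a GATA match.

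Sis (chr3:72967864-72968113, minus strand): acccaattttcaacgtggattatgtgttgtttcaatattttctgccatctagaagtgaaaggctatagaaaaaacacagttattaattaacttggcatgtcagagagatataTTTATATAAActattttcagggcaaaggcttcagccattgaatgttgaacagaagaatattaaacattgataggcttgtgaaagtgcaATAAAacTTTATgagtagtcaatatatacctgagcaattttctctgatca

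Mgam (chr6:40628581-40628830, plus strand): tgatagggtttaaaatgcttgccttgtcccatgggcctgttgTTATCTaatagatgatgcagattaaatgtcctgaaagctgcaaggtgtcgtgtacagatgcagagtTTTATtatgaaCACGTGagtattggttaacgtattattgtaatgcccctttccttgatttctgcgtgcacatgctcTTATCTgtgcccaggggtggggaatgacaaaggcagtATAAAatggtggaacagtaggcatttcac

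Lct (chr1:128328319-128328568, minus strand): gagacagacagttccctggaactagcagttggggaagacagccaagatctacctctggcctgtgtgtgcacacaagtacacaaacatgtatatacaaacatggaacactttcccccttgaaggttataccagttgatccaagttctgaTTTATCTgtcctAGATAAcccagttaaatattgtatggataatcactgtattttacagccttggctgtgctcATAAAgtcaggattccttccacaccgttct

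Khk (chr5:30921309-30921558, plus strand): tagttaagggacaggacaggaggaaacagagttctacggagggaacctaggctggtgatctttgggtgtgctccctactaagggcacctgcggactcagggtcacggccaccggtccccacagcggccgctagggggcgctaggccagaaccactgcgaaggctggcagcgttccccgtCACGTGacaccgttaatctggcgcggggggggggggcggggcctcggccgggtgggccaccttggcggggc

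TTTAT was found in 3 of 9 member windows (250 bases before to 50 bases after the start), against 13143 of all 32851 windows, and the 3 were those of Sis, Mgam and Lct. AGATAA was found in the windows of Mgam and Lct (11.2% of all windows hold it) and TGATAA in that of Slc2a2 (9.05%). CACGTG was found for Mgam, Slc5a1 and Khk (7.15%). The GC content of the 250 bases was 31.6% for Sis, 42.4% for Mgam, 42.8% for Lct, 47.2% for Slc2a2, 52.8% for Tkfc, 53.2% for Treh, 60.0% for Slc5a1, 66.4% for Slc2a5 and 67.2% for Khk. The median over the same 250 bases of all windows was 52.4%. These matches are a description of the letters in the B6 reference, not of bound sites.

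Among the transporters, Slc5a1 and Slc2a2 had the lowest C3H over B6 ratios of the 9 genes, and neither passed the adjusted threshold. Slc5a1 (ENSMUSG00000011034) had 3291, 4202, 4992 and 5287 CPM in C3H and 5900, 5558, 6019 and 5800 CPM in B6. Every C3H library lay below every B6 library, which held for no other member. The 4 values of the strains did not overlap for 24.4% of all tested genes (12.7% higher and 11.7% lower in C3H), so 1 of 9 is no more than that background. The B6 values were close together (coefficient of variation 3.36%), whereas those of C3H varied by 20.1%. The fold change was 0.764 (0.583 to 1.00, log2 -0.39, standard error 0.18, edgeR adjusted p = 0.152). It passed with library totals as scaling (log2 fold change -0.35, adjusted p = 0.0305) and in DESeq2's own test (-0.40, adjusted p = 0.0197). Over 20 alternatives its adjusted p ranged from 0.0195 to 0.452.

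Slc2a2 (ENSMUSG00000027690) had 489, 615, 838 and 682 CPM in C3H and 940, 859, 1084 and 747 CPM in B6. C3H 4 lay above B6 5, and the other 3 C3H libraries lay below all of B6. The fold change was 0.723 (0.559 to 0.935, log2 -0.47, standard error 0.17, edgeR adjusted p = 0.0731). Without C3H 4, its highest C3H library, it passed, with a log2 fold change of -0.61 (edgeR adjusted p = 0.0265). Without any other single library it did not pass (edgeR adjusted p up to 0.171). It also passed with no filter on low counts, with library totals and in DESeq2, and over 20 alternatives its adjusted p ranged from 0.0171 to 0.427.

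Slc2a5 (ENSMUSG00000028976) had 342, 372, 493 and 484 CPM in C3H and 362, 406, 386 and 354 CPM in B6. C3H 4 and C3H 5 lay above all of B6, C3H 1 lay below all of B6, and C3H 3 fell among the B6 values. The fold change was 1.12 (0.923 to 1.36, edgeR adjusted p = 0.412).

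Of the enzymes that use fructose, Khk was slightly below and Tkfc slightly above a ratio of 1, and neither passed. Khk (ENSMUSG00000029162) had 317, 341, 400.3 and 416 CPM in C3H and 360.1, 426, 368 and 439 CPM in B6. The strains overlapped, with a fold change of 0.925 (0.777 to 1.10, edgeR adjusted p = 0.550). Tkfc (ENSMUSG00000034371) had 424, 438, 469 and 522 CPM in C3H and 369, 442, 402 and 401 CPM in B6. Only B6 3 reached into the range of C3H, and the fold change was 1.15 (0.988 to 1.33, edgeR adjusted p = 0.187). With library totals as scaling the Tkfc values of the strains no longer overlapped (458 to 479 CPM in C3H, 374 to 435 CPM in B6) and the gene passed (log2 fold change 0.25, adjusted p = 0.0268); over 20 alternatives its adjusted p ranged from 0.0268 to 0.754. Tkfc overlaps Ddb1 and Cyb561a3 on the opposite strand (157476 counts against 108471 and 10749), and the strand setting of the counting is not given, so its level is uncertain.

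**Figure D3:**
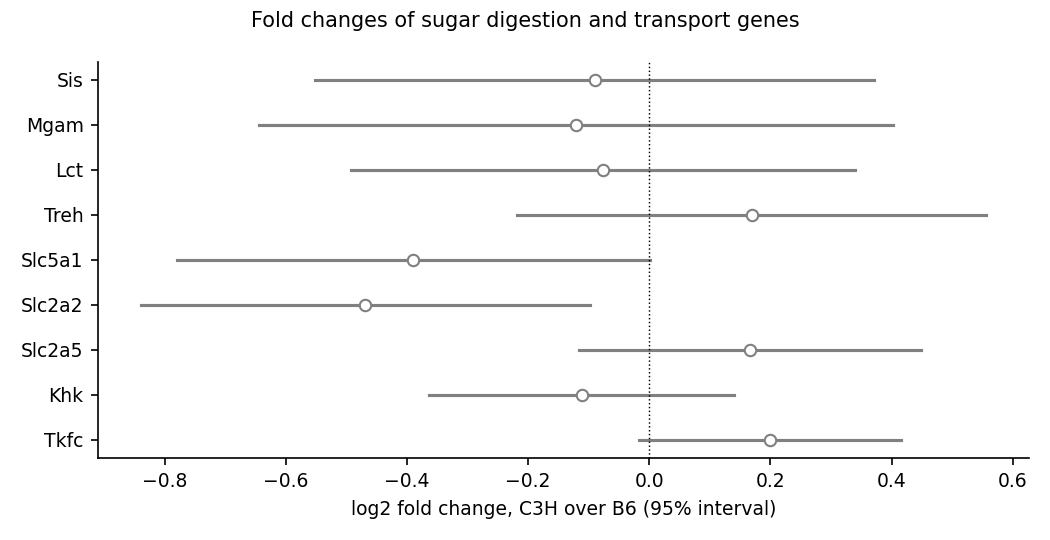
Points are log2 fold changes of C3H over B6 and lines their 95% intervals from the edgeR fit, 1 row per gene; open grey points did not pass the adjusted threshold of 0.05. All 9 points are open, the interval of Slc2a2 is the only one that lies wholly on 1 side of 0 (-0.84 to -0.10), and that of Slc5a1 ends at 0.0010.

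The intervals bound the strain difference that these libraries leave room for. The widest was that of Mgam, and the narrowest that of Tkfc (0.988 to 1.33). No member's interval reached a 2-fold difference in either direction, the most distant bounds being 0.559 for Slc2a2 and 1.47 for Treh.

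Ratios between members were then compared, since a ratio of counts within a library does not depend on scaling. Of the 36 pairs, 11 had ratios that did not overlap between the strains (30.6%), against 32.7% of all pairs of genes with a mean of at least 100 CPM, so the share was near that background. Of the 11 pairs, 5 included Slc2a2 and 4 included Slc5a1. The ratio of Slc2a2 to Slc2a5 was 1.55 ± 0.149 in C3H and 2.41 ± 0.350 in B6 (SD, n = 4 each). The ratio of Khk to Tkfc was 0.794 ± 0.0442 in C3H and 0.988 ± 0.0767 in B6, and that of Slc5a1 to Slc2a5 was 10.5 ± 0.749 in C3H and 15.5 ± 1.26 in B6. Slc5a1 and Slc2a2, the apical and the basolateral glucose carrier, kept overlapping ratios to each other. These pairs were picked out after their values were seen and were not tested.

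The members varied together between the C3H libraries. C3H 1 had the lowest level of all 9 genes within its strain, C3H 5 the highest of 6 and C3H 4 the highest of 3. Among the 1829 genes with a mean of at least 100 CPM, 63.3% were also lowest in C3H 1 and 66.4% highest in C3H 5, so most abundant genes had the same lowest and highest library. With library totals as scaling C3H 1 was lowest for 8 of the 9, Tkfc being the exception, but C3H 5 was highest for only 3 and C3H 4 for 5, so which library was highest depended on the scaling. The summed enterocyte markers were likewise lowest in C3H 1 and highest in C3H 5, with 59813, 66176, 80779 and 94535 CPM in C3H 1, 3, 4 and 5. Apoa4 was the largest part of this sum, with 19396 CPM in C3H 1 and 32865 CPM in C3H 5. The summed crypt and proliferation markers ran the other way, with 769.6, 560.2, 502 and 406 CPM in those libraries, and the part of either in the values of the 9 genes was not tested.

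In B6 no library was lowest throughout. B6 5 was lowest for 5 members, B6 2 for 3 and B6 3 for 1, and B6 4 was highest for 5; with library totals B6 5 was lowest for 5, B6 4 for 2, and B6 2 and B6 3 for 1 each, and B6 4 was highest for 4. Sis and Mgam were 0.36 and 0.31 below their strain mean in B6 5 on the log2 scale, where Khk was 0.15 above its own, while Treh was 0.26 below its mean in B6 2, where Sis was 0.27 above. The summed crypt markers were 614, 516, 423 and 527 CPM in B6 2, 3, 4 and 5, and the enterocyte markers 66286, 76239, 85591 and 73290 CPM.

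**Figure D4:**
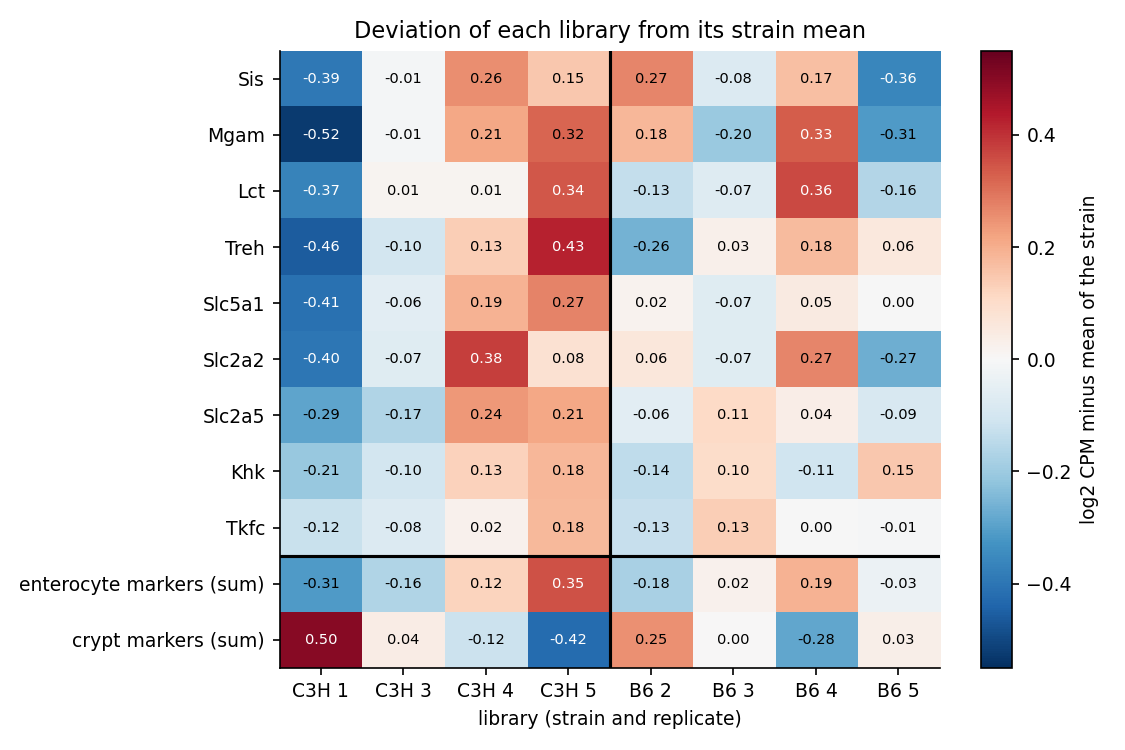
Cells give the log2 CPM of each library minus the mean of its strain, for the 9 genes and, under the line, for summed enterocyte and crypt markers; C3H libraries are on the left, red is above and blue below the strain mean. The C3H 1 column is negative for all 9 genes (-0.12 to -0.52) and positive for crypt markers (0.50), and the C3H 5 column shows the reverse.

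An alternative chosen after seeing the data scaled to the geometric mean of the 12 enterocyte markers, not their sum, in place of all genes. This scaling moved the median of all genes from 0.025 to 0.14, and 1 member passed. It was Slc5a1, with a log2 fold change of -0.32 (adjusted p = 0.0195). Slc2a2 had -0.38 (adjusted p = 0.0558) and Tkfc 0.30 (adjusted p = 0.0687) under this scaling.

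Other genes of carbohydrate handling did include genes that passed. Of 8 tested genes of fructose and polyol handling 3 were higher in C3H and 1 lower (50%, against 21.4% of all tested genes; median log2 fold change 0.21, against 0.025 over all tested genes). The aldolases Aldoc and Aldoa rose (38.3 ± 11.3 CPM in C3H and 16.4 ± 2.59 in B6 for Aldoc, log2 fold change 1.22; 0.49 for Aldoa), as did Akr1b8, an aldo-keto reductase with close copies (0.72). Sord, which makes fructose from sorbitol, fell by 0.56 on the log2 scale (adjusted p = 0.0275); its call ended without any 1 of C3H 1, C3H 3, C3H 4, B6 3, B6 4 or B6 5 (adjusted p up to 0.0748).

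Of 29 tested genes of glycolysis and gluconeogenesis, 8 were higher in C3H and 1 was lower (31%, against 21.4% of all tested genes; median log2 fold change 0.15). Fbp1, fructose-bisphosphatase, rose to 111 ± 19.3 CPM in C3H, against 48.7 ± 4.67 in B6 (n = 4 each, ± SD), with a log2 fold change of 1.19 (standard error 0.13, edgeR adjusted p = 5.59e-05). Pfkl, a phosphofructokinase subunit, and G6pc, glucose-6-phosphatase, rose by 0.93 and 0.85 on the log2 scale, and the hexokinase gene Hk2 fell by 0.49. In galactose and glycogen use, 2 of 14 tested genes rose and 1 fell (21.4%, as over all tested genes; median 0.076): Galk1, galactokinase, had 0.71 and Pgm1, a phosphoglucomutase, 0.46, while Galk2 fell by 0.69. Galk2 (8327 counts) overlaps Cops2 (20423 counts) and Pgm1 (32900) overlaps Itgb3bp (1214) on the opposite strand, so these too are uncertain.

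Of 14 other sugar transporters tested, 2 were higher and 1 was lower in C3H, which at 21.4% equals the share over all tested genes (median log2 fold change -0.056). Slc2a9, a urate and sugar carrier, rose (124 ± 21.6 CPM in C3H, 57.8 ± 4.52 in B6, ± SD over 4 libraries), with a log2 fold change of 1.11 (standard error 0.12, edgeR adjusted p = 7.32e-05). Slc5a4b, of a pair of close copies related to Slc5a1, rose by 0.72. The other copy, Slc5a4a, had a log2 fold change of -0.21 and did not pass (edgeR adjusted p = 0.228). Slc5a11, a sodium-coupled inositol carrier, fell by 0.44, a call that ended without any 1 of C3H 3, B6 3 or B6 5 (adjusted p up to 0.0699). Among 9 other glycosidases tested, of which 44.4% passed (median 0.029), Gba2, Ganc and Lctl rose by 0.61, 0.74 and 1.70 on the log2 scale, the last on 172 counts in C3H and 53 in B6, and Gaa, the lysosomal α-glucosidase, fell by 0.43. Without the strand setting the levels and fold changes of Gba2, Ganc and Lctl are uncertain, since each overlaps genes on the opposite strand: Gba2 (2991 counts) overlaps Creb3 and Rgp1 (22083 and 23952 counts), Ganc (13782) overlaps Tmem87a (9558) and Lctl (225) overlaps Zwilch (1835).

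Of 21 regulators and sugar sensors tested, 3 were higher and 4 were lower in C3H (33.3%, against 21.4% of all tested genes), or 2 and 2 without C3H 3, and the median log2 fold change was 0.00024. Mlxipl, which encodes the carbohydrate response factor ChREBP, rose to 146 ± 17.8 CPM in C3H, against 100.2 ± 7.68 in B6 (SD, n = 4 each, log2 fold change 0.54, edgeR adjusted p = 0.00285). The related gene Mlx went the other way, with 108 ± 6.53 CPM in C3H and 129 ± 7.30 in B6 (log2 fold change -0.26, edgeR adjusted p = 0.0393). Of the subunits of the sweet taste receptor, Tas1r3 rose by 1.08, with the same doubt (485 counts, against 28948 for Dvl1 on the opposite strand). Tas1r2 fell by 3.22, on 8 counts in C3H and 83 in B6, and overlaps Gm21969 (30 counts) on the same strand. Of the 8 tuft and enteroendocrine markers 4 were higher and 3 were lower in C3H (87.5%, against 21.4% of all tested genes). The tuft cell markers Trpm5, Pou2f3 and Dclk1 fell by 1.73, 1.33 and 0.89 on the log2 scale, and the enteroendocrine markers Gip, Cck, Chgb and Chga rose by 1.29, 0.81, 0.70 and 0.55. The summed level of the 8 was 442 to 640.0 CPM in C3H and 258 to 363 CPM in B6. This sum mostly reflects the enteroendocrine markers and hides the lower tuft markers. Chgb had a mean of 210 CPM in C3H and 129 CPM in B6, and Trpm5 4.46 CPM in C3H and 14.8 CPM in B6. The part of these markers in the values of the taste receptor genes was not tested. Gata4, a factor known to act on the Sis and Lct promoters, did not pass (log2 fold change 0.00024, adjusted p = 0.999), while Cdx2, an intestinal CDX factor, fell by 0.31 (adjusted p = 0.0306). Cdx1, another, had a log2 fold change of 0.21 and did not pass (adjusted p = 0.149). These genes were chosen after their values were seen. Without the 4 libraries richest in pancreatic transcripts 11 of the 22 genes picked out by rule from these lists passed, and the calls of Aldoa, Hk2, Pgm1, Slc5a4b, Slc5a11, Gba2, Ganc, Gaa, Lctl, Tas1r3 and Mlxipl ended. The calls of Hk2 and Gaa also ended with enterocyte scaling, and that of Akr1b8 in the 6 libraries with shared replicate numbers (adjusted p = 0.0641).

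**Figure D5:**
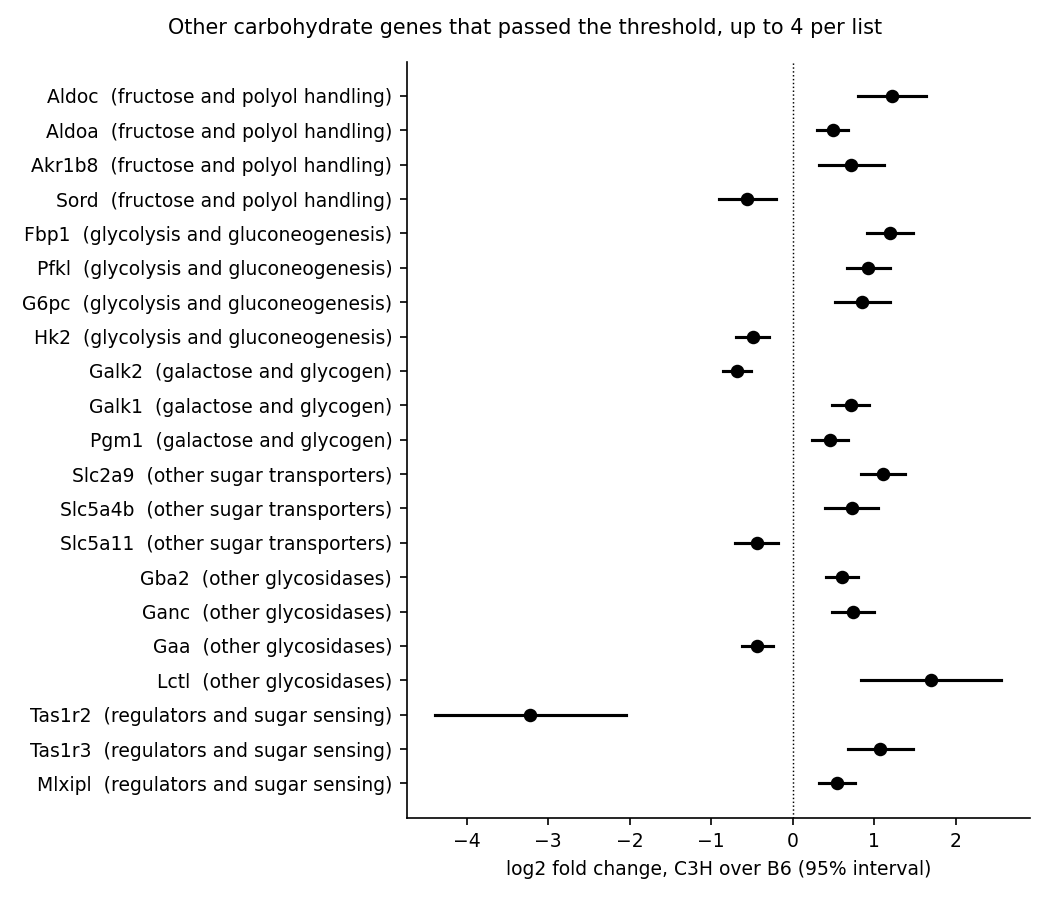
Points are log2 fold changes of C3H over B6 with 95% intervals from edgeR for 21 of the 22 other carbohydrate genes picked out by rule, up to 4 per list; all passed the adjusted threshold of 0.05. Of the 21 points, 15 lie right of 0 and 6 left of it, with Tas1r2 farthest left at -3.22.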

How the data were processed

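Per the labels' protocols, RNA came from a miRNeasy extraction (Qiagen), and a stranded Illumina mRNA kit was given 200 ng with an integrity number above 7. The authors deposited raw counts per gene for 8 libraries; the submitters' processing notes name STAR 2.7.9a, HTSeq 2.0.2 and the build GRCm39. Neither annotation release nor strand setting is given in the sources used here. Symbols and transcript lengths came from GENCODE M21, matched by Ensembl identifier (52000 of 56941), and 225 of 229 listed symbols were found.

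Counts were fitted in edgeR 4.0.16 (R 4.3.3) with TMM scaling, filterByExpr at its minimum count of 10, a quasi-likelihood test of strain and adjustment over all genes tested at 0.05. Standard errors and 95% intervals came from the fold change and F statistic. TMM factors were 0.915 to 1.13. Libraries of 1 strain differed by a chi-square per degree of freedom of 23.3 to 89.6, so none was a copy. The fit was tested on simulated data with known changes, placed on genes drawn at random from those tested. It recovered 13 of 50 changes of 1.5-fold, 35 of 50 of 2-fold and 45 of 50 of 4-fold, with 8 false calls among 150. Most changes of 1.5-fold were thus missed, and the shares are not specific to the members.

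Alternatives were other scalings (DESeq2 size factors, upper quartile, library totals and, chosen after seeing the data, enterocyte markers), 2 other filters (none, or a mean count of 100), the test of DESeq2 1.42.0, that of limma-voom (limma 3.58.1), a stricter threshold (0.01), a replicate block, and leaving out each library or the 4 richest in pancreatic transcripts. The members and lists were chosen with earlier results of these data known. Genes named by rule outside the members were up to 4 per list with the smallest adjusted p among those that passed. A rule naming the genes most alike to each member that passed named none. Mgam2-ps, Slc5a4a, Mlx, Gata4, Cdx1, Cdx2 and some marker genes were named outside these rules. Lists were described by counts and medians, with no test of the list. Some listed genes and a motif are not reported here.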

Additional observations from a re-analysis of the deposited data

Results flagged for a closer look

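In a group of 4 libraries, a library was set apart where its gap to the nearest other, over the group's whole range, exceeded Dixon's 95% critical value. Of 62 groups examined (the 9 members and the 22 other carbohydrate genes, in each strain), 4 were set apart, all in B6, and chance alone sets apart about 1 in 20. Lct had 4919 CPM in B6 4, against 3416 to 3633 CPM in the other B6 libraries. Akr1b8 had 2.84 CPM in B6 3, against 1.97 to 2.01 CPM. Hk2 had 24.9 CPM in B6 3, against 21.2 to 21.6 CPM. Gaa had 31.3 CPM in B6 5, against 25.7 to 26.2 CPM.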

How the results depend on the processing

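Of 180 member fold changes under the alternatives, 162 kept their direction and side of the threshold. The 180 include the 9 at the threshold of 0.01, which reused the main fit and so could not change. The count of members passed moved from 0 to 3 with library totals (Slc5a1 -0.35, Slc2a2 -0.42, Tkfc 0.25 on the log2 scale), 1 with no filter (Slc2a2 -0.50), 2 with DESeq2's test (Slc5a1 -0.40, Slc2a2 -0.48) and 1 with enterocyte scaling (Slc5a1 -0.32), which turned Lct to 0.011. With 1 library left out, 0 to 1 members and 3099 to 3682 genes passed, and the log2 fold change was -0.20 to 0.015 for Sis, -0.23 to 0.016 for Mgam, -0.20 to 0.059 for Lct, 0.011 to 0.29 for Treh, -0.48 to -0.28 for Slc5a1, -0.61 to -0.36 for Slc2a2, 0.083 to 0.24 for Slc2a5, -0.18 to -0.058 for Khk and 0.14 to 0.24 for Tkfc. Sis, Mgam and Lct turned positive without C3H 1 (0.015, 0.016 and 0.022), and Lct without B6 4 (0.059).

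Same-numbered libraries did not deviate together in every pair (correlations across genes of 0.31, 0.28 and -0.25 for replicates 3, 4 and 5), and C3H 3 correlated best with B6 2, so the numbers were not taken as pairs. In the 6 libraries with shared numbers, Sis and Mgam had 0.11 and 0.089 with a replicate block and 0.10 and 0.066 without it; 0 members passed in both, with 2919 and 3212 genes. A threshold of 0.01 left 2326 genes. Leaving out the 4 pancreas-rich libraries left 1675 genes, turned Treh to -0.12 and gave -0.38 for Lct, -0.30 for Mgam, -0.52 for Slc5a1 and -0.18 for Khk. In the 100 bases before the start, TGATAA matches fell to 0 members and CACGTG to 1. The cause of these moves was not tested. Library totals split the calls into 2194 higher and 1402 lower genes, against 2040 and 1817, and enterocyte scaling into 1677 and 921.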
